A study of Mus musculus with 8 samples.

Results

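The 8 genes described here encode the γ-tubulin ring complex of the mouse and WDR90, a protein of the centriole. They are the γ-tubulins Tubg1 and Tubg2, the γ-tubulin complex proteins Tubgcp2, Tubgcp3, Tubgcp4, Tubgcp5 and Tubgcp6, and Wdr90. They were matched by Ensembl identifier among the 20802 genes of a hippocampal RNA-sequencing table, all 8 were found, and all 8 were among the 18865 that averaged 10 or more normalized counts and were compared. The genes were chosen by function and by their values in the comparison of ketamine with saline, in which Wdr90 and Tubgcp6 were already known to be higher. Their differences between the groups are therefore given as a description, with a standard error and no p-value.

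RNA was sequenced from the hippocampus of 8 male C57BL/6 mice with no engineered allele named in the labels, 4 in Anesthesia mice and 4 in Control mice. The Anesthesia group was injected intraperitoneally with ketamine, a dissociative anesthetic that blocks NMDA receptors, at 35 mg per kg once a day on 5 days from postnatal day (PND) 16. The Control group was handled in the same way with saline according to the protocol, whereas its sample titles say untreated. The methods place RNA extraction 1 week after the last injection, and the labels give PND28 as the age of both groups. Nothing in the labels states that mice came from different litters, so the spread between mice may not hold all of the variation between animals.

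Microtubules grow from γ-tubulin ring complexes, in which γ-tubulin is held in a ring by the γ-tubulin complex proteins (GCPs) and caps the minus end of the new microtubule. GCP2 and GCP3 pair with γ-tubulin in the small complexes that make up most of the ring, while GCP4, GCP5 and GCP6 take fewer, fixed places in it. In dividing cells the ring sits mainly at the centrosome, whereas in mature neurons most microtubules are nucleated away from the centrosome, on other microtubules or on membranes. WDR90, also called POC16, is a WD40-repeat protein of the inner wall of the centriole, where it helps to hold the inner scaffold in place.

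The sequences that bear on these genes are of 2 kinds. Those of Tubg1 and Tubg2 are shown because the genes are close copies of each other, lie near each other on chromosome 11 and could share reads. Their coding sequences in GENCODE M21 had 1353 bases each, of which 1262 (93.27%) were identical and 91 differed, and 73 of the differences were at the last position of a codon. The longest identical run was 164 bases. The stretch of 120 bases that was most alike, coding bases 640 to 759, was the same in both genes and is given first. The stretch that was least alike, coding bases 1160 to 1279, held 97 identical and 23 differing bases and is given for each gene with the differing bases in capitals.
Tubg1 and Tubg2, coding bases 640 to 759: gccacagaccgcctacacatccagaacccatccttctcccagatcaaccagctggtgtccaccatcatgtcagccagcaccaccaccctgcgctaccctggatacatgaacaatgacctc
Tubg1, coding bases 1160 to 1279: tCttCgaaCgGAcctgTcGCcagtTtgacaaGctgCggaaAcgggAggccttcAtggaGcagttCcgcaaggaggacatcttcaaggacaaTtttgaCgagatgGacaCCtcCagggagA
Tubg2, coding bases 1160 to 1279: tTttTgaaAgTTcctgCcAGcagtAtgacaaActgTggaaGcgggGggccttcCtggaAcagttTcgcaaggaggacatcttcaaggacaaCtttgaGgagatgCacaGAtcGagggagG

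The other sequences lie upstream of Wdr90 and Tubgcp6, the pair of genes whose values did not overlap between the groups. They come from the RefSeq promoter windows of GRCm38.p6, which held 6 of the 8 genes and not Tubgcp2 or Tubg1. Both are given 5′ to 3′ on the minus strand, which is the strand of these genes, without annotated exons, and with CG pairs in capitals. The Wdr90 sequence is the 250 bases before its start site, at chr17:25861516-25861765, and the Tubgcp6 sequence is 94 bases at chr15:89123209-89123302.
Wdr90: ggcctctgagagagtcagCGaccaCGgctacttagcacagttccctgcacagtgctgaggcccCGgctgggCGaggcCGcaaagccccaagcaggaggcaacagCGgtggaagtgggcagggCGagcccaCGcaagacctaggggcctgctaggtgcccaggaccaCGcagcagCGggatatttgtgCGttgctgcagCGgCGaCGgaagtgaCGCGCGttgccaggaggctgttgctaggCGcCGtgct
Tubgcp6: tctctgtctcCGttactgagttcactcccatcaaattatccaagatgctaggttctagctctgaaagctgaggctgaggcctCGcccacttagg

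Over the whole window of 300 bases (250 before and 50 after the start), the Wdr90 promoter had 64.7% GC and 24 CG pairs and the Tubgcp6 promoter 60.3% GC and 23 CG pairs, against medians of 52.7% and 7 over the 32851 promoters in the table. Among the other 4 promoters the CG pairs numbered 40 for Tubgcp3, 28 for Tubgcp4, 18 for Tubgcp5 and 8 for Tubg2. The windows were searched on both strands for 8 motifs, the TATA box as TATAAA, the CCAAT box as CCAAT, the GC box as GGGCGG, the ETS motif as CCGGAAG, the E-box as CACGTG, the cyclic AMP element as TGACGTCA, the NRF1 motif as GCGCATGC and the cell cycle homology region as TTTGAA. None of the 8 was in the Wdr90 window, and Tubgcp6 held GGGCGG, which 35.7% of all promoters hold and which Tubgcp5 held as well. Tubgcp4 held CCGGAAG (8.9% of all promoters) and GCGCATGC (2.7%), so Wdr90 and Tubgcp6 shared none of the motifs searched. A match is only a run of letters, and the absence of a match says nothing about whether a factor binds.

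The deposited values are estimated read counts per gene divided by DESeq2 size factors, called normalized counts here, and they summed to between 18702634 and 19231119 per mouse. From the spacing of low values, approximately 15400000 to 22200000 reads per mouse lay on the listed genes, but only 45.9% to 68.3% of the low values came within 0.1 of a whole read, so read counts were not recovered. The 8 hippocampal neuron markers were detected in every mouse and summed to between 37630 and 44010. The libraries differed widely in markers of the choroid plexus, the epithelium that makes cerebrospinal fluid and borders the hippocampus. The sum of 10 such genes was between 45830 and 103500 in Anesthesia replicate 1 and Control replicates 2, 3 and 4, and between 4357 and 9959 in Anesthesia replicates 2, 3 and 4 and Control replicate 1. None of the markers of the 10 cell type or tissue lists was at 0 in any mouse, and no list had a sum that separated the groups.

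Of the 8 genes, Wdr90 and Tubgcp6 had values in the Anesthesia group that were all above those of the Control group, and the other 6 overlapped. Over all 18865 genes tested, 2.81% had every Anesthesia mouse above every Control mouse and 2.23% had every Anesthesia mouse below. The count of 2 among genes selected on these same mice is a description only. The 7 log2 fold changes that were positive included 5 that rounded to 0.10 or less, and the median of the 8 was 0.09 against -0.004 for all genes. In the limma comparison of all genes, 0% had an adjusted p under 0.05 (0 genes with limma and 0 with limma voom). At an unadjusted p under 0.05 there were 1513. The limma comparison used log2 values of normalized counts. The paper, with the DESeq2 count model, reports genes under the same adjusted threshold. That model was not run here, because read counts were not recovered. Because this is bulk tissue, a change in the number of cells that express a gene and a change in its RNA per cell cannot be told apart.

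**Figure D1:**
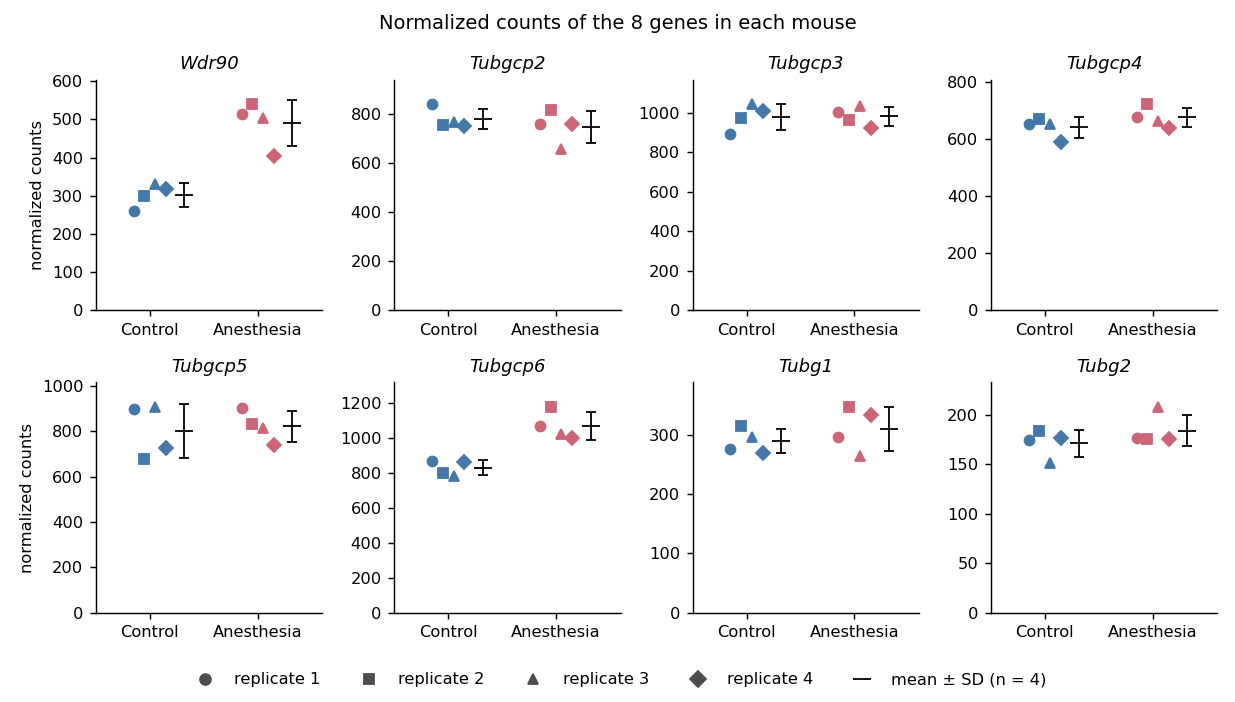
Normalized counts (vertical axes, from 0) of the 8 genes in each of the 4 Control (blue) and 4 Anesthesia (red) mice. The marker shape gives the replicate number, and the black bar to the right of each group is the mean ± SD (n = 4). The groups are apart for Wdr90, with 402.7 as the lowest Anesthesia and 330.4 as the highest Control value, and for Tubgcp6, and they overlap in the other 6 panels.

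Wdr90 (ENSMUSG00000073434) lies on chromosome 17, from 25844771 to 25861501 on the minus strand of GRCm38, and is protein-coding with 12 annotated transcripts. It had 513.9, 539.1, 503.2 and 402.7 normalized counts in Anesthesia replicates 1 to 4, and 259.9, 299.5, 330.4 and 318 in Control replicates 1 to 4. Anesthesia replicate 4 was the lowest of its group and Control replicate 1 the lowest of all mice. The means were 489.7 ± 59.9 and 302 ± 30.8 (SD, n = 4 each), a 1.62-fold difference, or a log2 fold change of 0.69 with a standard error of 0.11. With each mouse left out in turn the log2 fold change lay between 0.62 (without Control replicate 1) and 0.78 (without Anesthesia replicate 4). Wdr90 had the widest difference of the 8 genes and, per kb of exon, the lowest level.

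Tubgcp6 (ENSMUSG00000051786) encodes GCP6, the largest of the GCPs, and lies on chromosome 15, from 89098357 to 89123112 on the minus strand. It had 1066, 1174, 1021 and 994.6 normalized counts in Anesthesia replicates 1 to 4, and 866, 800.4, 781.2 and 860.2 in Control replicates 1 to 4. The order of the Anesthesia mice was the same as for Wdr90, with replicate 2 highest and replicate 4 lowest, while in the Control group the mouse that was lowest for Wdr90, replicate 1, was the highest for Tubgcp6. The means were 1064 ± 79.3 and 827 ± 42.5 (SD, n = 4 each), a 1.28-fold difference, or a log2 fold change of 0.36 with a standard error of 0.07. It lay between 0.31 and 0.39 with each mouse left out. The gap between the lowest Anesthesia mouse (994.6) and the highest Control mouse (866) was wider than the range of the Control group (781.2 to 866).

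The genes of the small complex did not separate the groups. Tubgcp2 (ENSMUSG00000025474; chromosome 7, 139995955 to 140036669), which encodes GCP2, had 758.4, 817.2, 659.6 and 757.7 normalized counts in Anesthesia replicates 1 to 4 and 839.5, 756.9, 768.5 and 752.2 in Control replicates 1 to 4. Tubgcp2 was the only one of the 8 genes with a negative value, a log2 fold change of -0.06 with a standard error of 0.08. Its lowest mouse was Anesthesia replicate 3 and its highest Control replicate 1.

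Tubgcp3 (ENSMUSG00000000759; chromosome 8, 12614277 to 12672248) encodes GCP3, the partner of GCP2. It had 1003, 964, 1035 and 924.1 normalized counts in Anesthesia replicates 1 to 4 and 889.7, 971.1, 1042 and 1010 in Control replicates 1 to 4. Both the lowest and the highest Tubgcp3 value were in the Control group. The means were 981.5 ± 48.1 and 978.4 ± 66 (SD, n = 4 each), and the log2 fold change was 0.006 with a standard error of 0.07, the smallest of the 8 genes.

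Tubgcp4 (ENSMUSG00000027263; chromosome 2, 121170654 to 121198770, plus strand) encodes GCP4, the smallest of the GCPs. It had 677.4, 720.1, 661.5 and 638.4 normalized counts in Anesthesia replicates 1 to 4 and 650.9, 670.8, 652.3 and 587.5 in Control replicates 1 to 4. Replicates 2 and 4 were the highest and the lowest of both groups, and the log2 fold change of Tubgcp4 was 0.07 with a standard error of 0.07.

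Tubgcp5 (ENSMUSG00000033790; chromosome 7, 55794154 to 55831677, plus strand) encodes GCP5. It had 900.5, 833.6, 816 and 737.5 normalized counts in Anesthesia replicates 1 to 4 and 896.4, 676.3, 906.7 and 724.2 in Control replicates 1 to 4. The Control mice fell into a high and a low pair, so that Tubgcp5 had the widest spread of the 8 genes in that group (800.9 ± 118, SD, n = 4). Its log2 fold change was 0.05 with a standard error of 0.11. Thus, of the 3 GCPs that take fixed places in the ring, GCP6 alone had a gene whose groups did not overlap, a difference between the genes that was not tested.

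The γ-tubulin genes are neighbours on the plus strand of chromosome 11. Tubg1 (ENSMUSG00000035198; 101119938 to 101126419) is the copy expressed in nearly all cells, and had 297, 346.9, 264.7 and 332.9 normalized counts in Anesthesia replicates 1 to 4 and 276.8, 314.4, 296.6 and 269.2 in Control replicates 1 to 4. Tubg2 (ENSMUSG00000045007; 101155907 to 101161787) is the copy found mainly in brain, and had 176.3, 176, 207.8 and 175.9 normalized counts in Anesthesia replicates 1 to 4 and 174.1, 183.2, 151 and 176.2 in Control replicates 1 to 4. Anesthesia replicate 3 was the lowest of all mice for Tubg1 and the highest of all mice for Tubg2. The log2 fold changes were 0.10 for each gene with a standard error of 0.11 for each, and the groups overlapped.

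The levels of the 8 genes were compared with one another after division by the length of all annotated exons of each gene, a comparison that did not enter into the choice of the genes. Tubgcp2 had the highest level, 191.9 ± 13.3 normalized counts per kb (SD, n = 8), and Wdr90 the lowest, 46.4 ± 12.8. Between them came Tubg1 with 132.3 ± 13.2, Tubgcp3 with 114.4 ± 6.24, Tubg2 with 101.2 ± 8.81, Tubgcp5 with 90.8 ± 10.02, Tubgcp6 with 82.5 ± 12.2 and Tubgcp4 with 78.3 ± 4.47. The 7 neighbouring pairs in this order were tested within mice by a 2-sided exact sign-flip permutation test. For that test 8 mice allow no p below 0.00781, and Benjamini-Hochberg adjustment was over the 7 pairs. The order was taken from the same 8 mice, so the values tested also chose the pairs and the direction of each step. The p-values do not allow for this, and a step that passes is no independent support for the order.

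In that exact test 4 of the 7 steps passed. Tubgcp2 was above Tubg1 in 8 of 8 mice (mean log2 ratio 0.54 ± 0.14, adjusted p = 0.0182 by the exact permutation test). Tubg1 was above Tubgcp3 in 7 of 8 mice (0.21 ± 0.18, adjusted p = 0.041 by the exact permutation test), and Tubgcp3 was above Tubg2 in 8 of 8 (0.18 ± 0.15, adjusted p = 0.0182 by the exact permutation test). Tubg2, Tubgcp5, Tubgcp6 and Tubgcp4 followed each other with steps that did not pass (exact permutation test, adjusted p = 0.131, 0.146 and 0.344). The order within these differed between the groups in the place of Tubgcp6, which at 72.1 per kb was below Tubgcp4 (76.3) in Control mice and at 92.8 was level with Tubgcp5 (92.0) in Anesthesia mice. In each group alone 6 of the 7 pairs were in the pooled order. The last step, from Tubgcp4 down to Wdr90, was the widest, with a mean log2 ratio of 0.80 ± 0.37 and the same direction in 8 of 8 mice (adjusted p = 0.0182 by the exact permutation test). That step was 1.11 ± 0.20 in Control mice and 0.49 ± 0.13 in Anesthesia mice (SD, n = 4 each), as Wdr90 itself differed between them. The order depends on the length used for each gene: with the longest transcript in place of all exons Tubgcp5 moved from rank 5 to rank 2, and with the transcript of the longest coding sequence Tubgcp3 moved from rank 3 to rank 1. The step from Tubg1 to Tubgcp3, which passed above, was reversed in the means with both of these lengths. Tubg1 had 166.4 per kb with each, and Tubgcp3 had 171.2 with the former and 258.1 with the latter. The permutation test takes the lengths as given, so its p-values do not cover this choice. Wdr90 was at rank 8 with all 3 lengths.

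**Figure D2:**
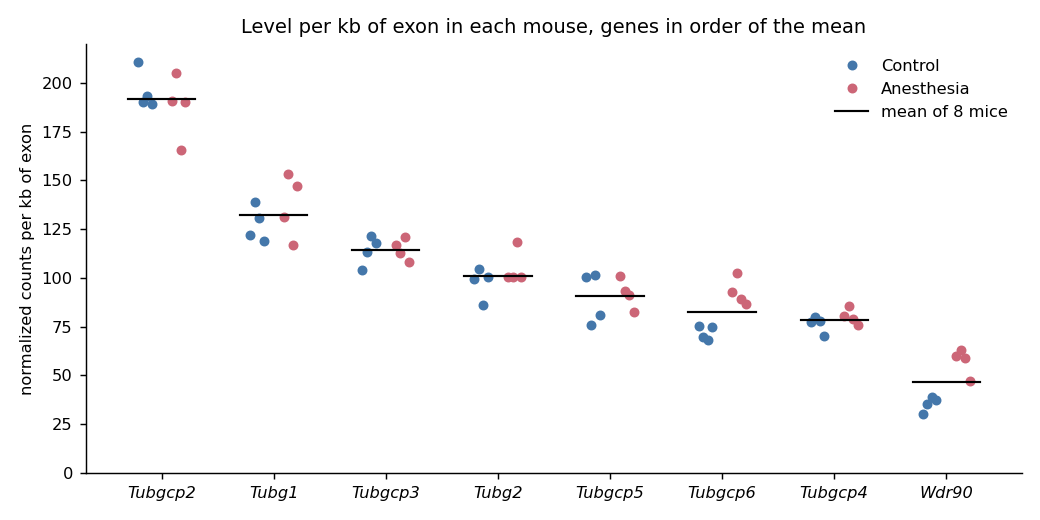
Normalized counts per kb of annotated exon (vertical axis, from 0) of the 8 genes, ordered by their mean. Each point is a mouse, Control in blue and Anesthesia in red, and the black lines are means of 8 mice, from 191.9 for Tubgcp2 to 46.4 for Wdr90. The levels of Tubg2, Tubgcp5, Tubgcp6 and Tubgcp4 overlap, and those of Wdr90 lie below all others in every mouse.

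Tubg1 was above its copy Tubg2 per kb of exon in 7 of 8 mice. The ratio lay between 0.986 in Anesthesia replicate 3 and 1.526 in Anesthesia replicate 2, with a mean log2 ratio of 0.38 ± 0.21 (SD, n = 8; p = 0.0156, 2-sided exact sign-flip permutation test). The mean log2 ratio was 0.38 ± 0.28 in Anesthesia mice and 0.39 ± 0.16 in Control mice (SD, n = 4 each), and it was 0.72 with the longest transcript as the length of each gene. Of the 31-base words in the transcripts of Tubg1, 19.32% also occurred in another gene, and 407 of those 432 words were in Tubg2, where they made up 23.61% of the words. How Salmon divided reads from the shared stretches between the copies was not tested, so their ratio is uncertain to that extent. The γ-tubulin total, Tubg1 plus Tubg2 per kb, was 241.9 ± 10.2 in Anesthesia mice and 225.2 ± 12.1 in Control mice (SD, n = 4 each), and the groups overlapped. The total of the 5 GCP genes was 567.7 ± 27.5 and 548 ± 19.9, and overlapped as well.

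Reads of the other genes can also be shared with genes that lie across them. The 3′ end of Tubgcp6 overlaps Selenoo on the opposite strand by 1984 bases, and 10.9% of the 31-base words of Tubgcp6 occurred in other genes, 887 of the 1265 shared words in Selenoo. Selenoo, which encodes a selenoprotein of mitochondria, had 544.6 ± 21.7 normalized counts in Anesthesia mice and 525.8 ± 28.3 in Control mice (SD, n = 4 each), and its groups overlapped (log2 fold change 0.05, standard error 0.07). Wdr90 overlaps Rhot2, a gene of mitochondrial transport, by 81 bases on the same strand and shared 0.57% of its words, all with Rhot2, whose log2 fold change was -0.008 with a standard error of 0.10. How reads from the overlaps were assigned, and their part in the Tubgcp6 and Wdr90 values, was not tested. A long noncoding gene, Gm26694, spans Wdr90 on the opposite strand and was not among the genes of the table.

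Among the remaining genes Tubgcp4 shared the most, 25.46% of its words, 2047 of 2169 with Trp53bp1 on the opposite strand (log2 fold change 0.06, standard error 0.07). Tubgcp4 also overlaps Zscan29 (-0.06, standard error 0.13). Tubgcp2 shared 4.61% of its words, all with Zfp511 (0.01, standard error 0.17), and Tubgcp3 0.93%, of which 33 words were in 4931415C17Rik (-0.23, standard error 0.25). Tubgcp3 also spans the miRNA gene Gm26483, which was not among the genes of the table, and Tubgcp5 shared 0.7% of its words. The groups overlapped for each of these neighbours. The methods name a stranded library kit and the labels another kit, so whether strand was used to assign such reads is not settled by the sources used here.

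Wdr90 and Tubgcp6 have long, GC-rich transcripts. The longest Wdr90 transcript has 6195 bases and 58.0% GC (percentiles 89.7 and 91.8 of genes), and that of Tubgcp6 7635 bases and 54.5% GC (percentiles 94.6 and 79.2). When every library was corrected for GC content and length, the log2 fold change was 0.61 for Wdr90 (standard error 0.11) and 0.28 for Tubgcp6 (standard error 0.07). Tubg1 and Tubg2, with 57.2% and 57.3% GC but short transcripts of 1802 and 1754 bases, had log2 fold changes of 0.07 and 0.08 after the same correction.

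**Figure D3:**
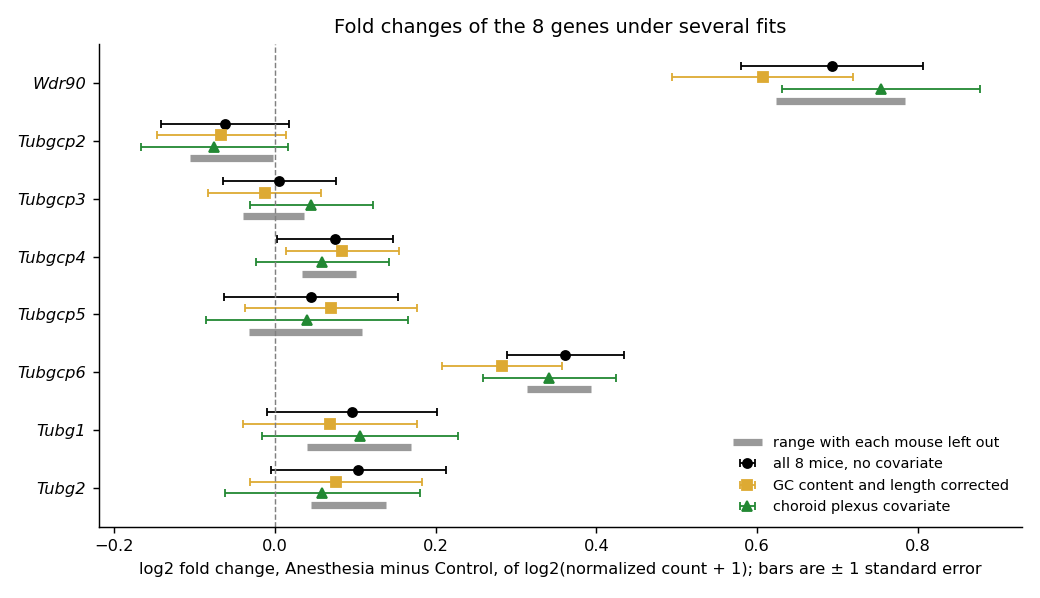
Log2 fold change of each gene, Anesthesia minus Control, from limma on log2(normalized count + 1), with bars of ± 1 standard error. Black points are from all 8 mice, yellow points follow a correction for GC content and length, green points have the mean log2 level of the choroid plexus genes as a covariate, and grey bars span the values with each mouse left out in turn. Wdr90 lies between 0.61 and 0.78 and Tubgcp6 between 0.28 and 0.39 in all of these, and the other 6 genes lie close to 0.

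The choroid plexus sums were unevenly spread over the groups, with a single Control mouse among those with little of that RNA and a single Anesthesia mouse among those with much, so the following values rest on single mice. Where that RNA was low, Wdr90 had 539.1, 503.2 and 402.7 normalized counts in Anesthesia replicates 2, 3 and 4 and 259.9 in Control replicate 1. Where it was high, Wdr90 had 513.9 in Anesthesia replicate 1 and 299.5, 330.4 and 318 in Control replicates 2, 3 and 4. Tubgcp6 was likewise at 994.6 to 1174 against 866 where it was low, and at 1066 against 781.2 to 860.2 where it was high. With the mean log2 level of the choroid plexus genes as a covariate the log2 fold changes were 0.75 for Wdr90 (standard error 0.12) and 0.34 for Tubgcp6 (standard error 0.08), and the part of choroid plexus RNA in these differences was not tested beyond that fit.

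**Figure D4:**
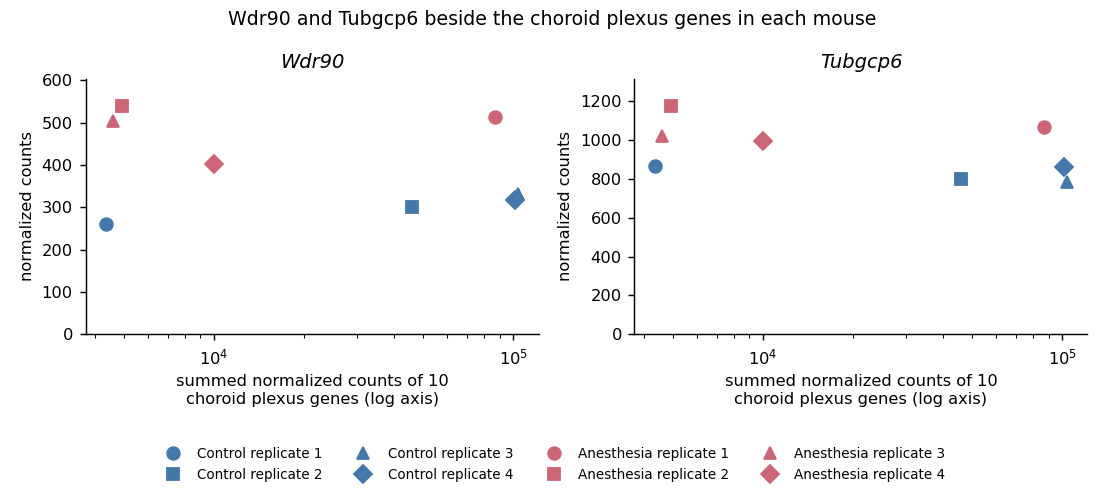
Normalized counts of Wdr90 (left) and Tubgcp6 (right; vertical axes from 0) in each mouse against the sum of 10 choroid plexus genes in the same mouse (horizontal log axis). Control mice are blue and Anesthesia mice red, with the shape giving the replicate number. The sum runs from 4357 to 103500, with 1 Control mouse (replicate 1) among the 4 lowest sums and 1 Anesthesia mouse (replicate 1) among the 4 highest.

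Other cells that could carry these RNAs were read in the same way. Genes of ependymal cells and motile cilia, which are built on centrioles, summed to 569.1 to 1077 in Anesthesia mice and 596.4 to 1426 in Control mice (10 of 10 genes measured). Genes of proliferating cells, which duplicate their centrioles, summed to 479.7 to 723 and 475.5 to 600.2 (8 of 8 measured). Neither sum was apart between the groups. The highest sums were in Control replicate 3 for ependymal genes and Anesthesia replicate 2 for proliferation genes. These mice had 330.4 and 539.1 normalized counts of Wdr90, the highest of their groups. Anesthesia replicate 4 had the next highest proliferation sum (686.9) and the highest ependymal sum of its group (1077), but the lowest Wdr90 value of that group (402.7). The sum of the hippocampal neuron genes lay between 39730 and 44010 in Anesthesia mice and between 37630 and 40060 in Control mice, so that only Anesthesia replicate 1 reached into the Control range. Of its 8 genes 5 had a positive and 3 a negative log2 fold change: Rbfox3, which encodes NeuN (0.30), Wfs1 (0.18), Slc17a7, a vesicular glutamate transporter (0.17), Snap25 (0.13), Camk2a (0.02), Prox1 (-0.0002), Neurod6 (-0.11) and Fibcd1 (-0.25). Rbfox3 and Slc17a7 had every Anesthesia mouse above every Control mouse. In the other lists the same held for P2ry12 of microglia (0.16), and every Anesthesia mouse was below every Control mouse for the astrocyte genes Gja1 (-0.11) and Slc1a3 (-0.10). These are 3 higher and 2 lower of the 67 marker genes compared, where 2.81% and 2.23% of all genes were so. The log2 fold changes were positive in 7 of the 7 proliferation genes compared and negative in 9 of 9 ependymal, 10 of 10 choroid plexus and 6 of 6 oligodendrocyte genes. The part of these cell types in the Wdr90 and Tubgcp6 values was not tested.

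The wider machinery around the γ-tubulin ring was read from 5 lists written by function, though with earlier results of these data known. Of their 66 genes 64 were in the table (Tubal3 and Tubb1 were not). In limma 0 of these 64 genes reached an adjusted p under 0.05, where 0% of all genes did. At an unadjusted p under 0.05 there were 2 higher genes, against 4.75% of all genes tested, and 4 lower ones, against 3.27%. The median log2 fold change of the 64 was -0.03, with 24 positive and 40 negative values, so these genes as a whole did not show the positive values of Wdr90 and Tubgcp6.

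Proteins that recruit or activate the ring had a median log2 fold change of -0.02 over 14 genes, 6 positive and 8 negative. The pair with an unadjusted p under 0.05 were Nin, which encodes the minus-end anchor ninein, and Pcnt, which encodes the centrosome scaffold pericentrin, both with higher means in the Anesthesia group. Nin had 2031, 2316, 2353 and 2263 normalized counts in Anesthesia replicates 1 to 4 and 2187, 1869, 1683 and 1854 in Control replicates 1 to 4 (log2 fold change 0.24, standard error 0.08, adjusted p = 0.62 from limma). The groups met only in Anesthesia replicate 1 and Control replicate 1. Pcnt had 1025, 901.5, 1640 and 1195 normalized counts in Anesthesia replicates 1 to 4 and 945.4, 871.4, 903 and 927.4 in Control replicates 1 to 4 (log2 fold change 0.35, standard error 0.15, adjusted p = 0.622 from limma). Its mean was raised most by Anesthesia replicate 3. Mzt1, which encodes a small protein bound to the GCPs, had 1479 ± 88.1 in Anesthesia mice and 1604 ± 87.2 in Control mice (SD, n = 4 each; adjusted p = 0.667 from limma).

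Augmin, the complex of 8 HAUS proteins that places γ-tubulin rings on existing microtubules, had a median log2 fold change of -0.15, with 3 positive and 5 negative values. Haus2 had 381, 399.4, 348.2 and 353.7 normalized counts in Anesthesia replicates 1 to 4 and 407.1, 527.5, 460.9 and 466.6 in Control replicates 1 to 4. Every Anesthesia mouse was below every Control mouse, the opposite direction to Tubgcp6, and its log2 fold change of -0.32 had a standard error of 0.09 (limma adjusted p = 0.583). Haus7, at a mean of 54.3 against 70.9 normalized counts (-0.39, standard error 0.17, adjusted p = 0.622 from limma), and Haus6, at 214 against 240.4 (-0.16, standard error 0.10, adjusted p = 0.692 from limma), had groups that overlapped. With the mean log2 level of the choroid plexus genes as a covariate the median of the augmin genes was 0.02, and it was -0.06 without Control replicate 4, -0.06 without Anesthesia replicate 2, -0.08 without Control replicate 2 and -0.22 without Control replicate 1.

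Centriole genes, the list nearest to Wdr90, had a median of -0.07 over 20 genes, 5 positive and 15 negative. Cep120, a centriole elongation gene, had 850.8, 835.1, 818.9 and 893.6 normalized counts in Anesthesia replicates 1 to 4 and 969.7, 961.4, 1006 and 899.4 in Control replicates 1 to 4 (log2 fold change -0.17, standard error 0.06, adjusted p = 0.62 from limma). Its groups did not overlap, although Anesthesia replicate 4 and Control replicate 4 were close. Stil, a gene of early centriole assembly, was scarce at 14.7 ± 4.09 against 9.42 ± 2.61 (SD, n = 4 each; log2 fold change 0.58, standard error 0.32, adjusted p = 0.665 from limma), and Spice1 had 267.5 ± 13.1 against 235.9 ± 27.3 (SD, n = 4 each; 0.19, standard error 0.10, adjusted p = 0.665 from limma). The other genes of the list included those of the inner scaffold that WDR90 helps to place, Poc1b (-0.03), Poc5 (-0.12), Fam161a (-0.21) and Cetn2 (-0.18), named after their values were seen, and the groups overlapped for each.

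Genes that bind or sever minus ends had a median of -0.02 over 10 genes, 4 positive and 6 negative. Camsap3, which encodes a minus-end binding protein, had 208.1, 152.1, 282 and 248.5 normalized counts in Anesthesia replicates 1 to 4 and 332.7, 336.1, 287.5 and 232.2 in Control replicates 1 to 4 (log2 fold change -0.44, standard error 0.19, adjusted p = 0.622 from limma). Control replicate 4 lay within the Anesthesia range. Its relative Camsap1 had 2787 ± 324 against 2493 ± 124 (SD, n = 4 each; 0.15, standard error 0.08, adjusted p = 0.66 from limma), and the katanin-like gene Katnal2 had 57.6 ± 12.9 against 71.7 ± 6.75 (SD, n = 4 each; -0.33, standard error 0.19, adjusted p = 0.671 from limma).

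The α- and β-tubulins, the building blocks of the microtubule, had a median of -0.004 over 12 genes, 6 positive and 6 negative. Tubb5 had 6530 ± 203 against 6333 ± 262 normalized counts (SD, n = 4 each; log2 fold change 0.04, standard error 0.05, adjusted p = 0.813 from limma) and Tubb2a 13940 ± 1570 against 14750 ± 765 (SD, n = 4 each; -0.09, standard error 0.08, adjusted p = 0.777 from limma). Tuba1c had the most negative value of the lists, -0.98 with a standard error of 0.64 (adjusted p = 0.699 from limma). It had 124.8 normalized counts in Anesthesia replicate 1, 59.3, 162.4 and 156.2 in Control replicates 2, 3 and 4, and 19.6 to 58.6 in the other 4 mice. The 4 mice with the higher Tuba1c values were those with much choroid plexus RNA, but Control replicate 2 (59.3) was barely above Anesthesia replicate 3 (58.6), which had little of it. The part of choroid plexus RNA in the Tuba1c values was not tested.

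**Figure D5:**
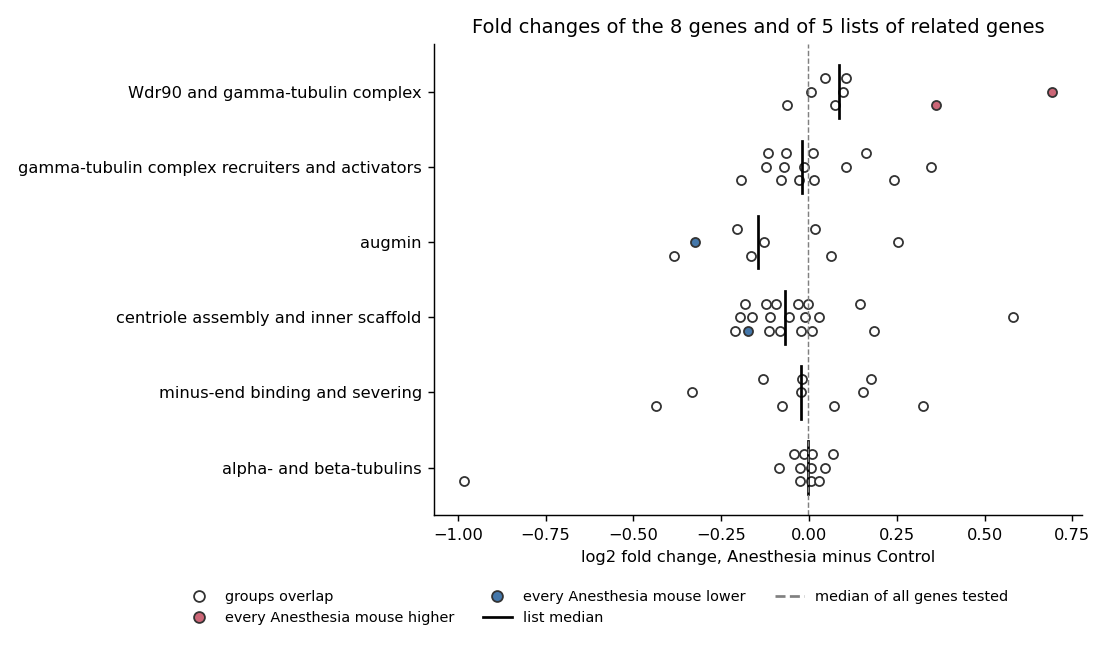
Log2 fold change (Anesthesia minus Control, horizontal axis) of the 8 genes and of the 64 measured genes of 5 lists, one point per gene, spread vertically for legibility. Filled points have groups that do not overlap, red where every Anesthesia mouse is higher and blue where every one is lower, black bars are list medians and the dashed line is the median of all genes tested (-0.004). Wdr90 (0.69) and Tubgcp6 (0.36) are the red points, and Haus2 (-0.32) and Cep120 (-0.17) the blue ones.

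Wdr90 was compared over the 8 mice with 12241 genes with a mean of at least 100, each gene centred on its own mean. The genes closest to it were found by the root mean square difference of log2 values. They were Dot1l (0.167), which encodes the histone H3 lysine 79 methyltransferase, Ccnyl1 (0.178), a cyclin Y relative, Vars (0.181), the valyl-tRNA synthetase, Nfic (0.183), a transcription factor, and Slc36a1 (0.19), an amino acid transporter. The median difference over the genes compared was 0.41. Dot1l had 434, 430.3, 467.1 and 385.9 normalized counts in Anesthesia replicates 1 to 4. In Control replicates 1 to 4 it had 305.3, 274.9, 323.7 and 259.6. Within the Anesthesia group both Dot1l and Wdr90 were lowest in replicate 4, but Dot1l was highest in replicate 3 and Wdr90 in replicate 2. Within the Control group Dot1l was lowest in replicate 4 and Wdr90 in replicate 1. The log2 fold changes of the 5 genes were between 0.36 for Vars and 0.57 for Ccnyl1, all below that of Wdr90. Tubgcp6, with a difference of 0.222, would stand at rank 20 in this order. The likeness was measured on the same mice as the group difference, so that any gene that is higher in the Anesthesia group by a similar amount comes near Wdr90.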

How the data were processed

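Hippocampal RNA of 8 male mice was measured, 4 per group, with 1 column per mouse and 0 columns unused. The authors ran Salmon 1.1.0 with GC bias correction on GRCm38, imported gene-level values into R 3.5.3 and deposited counts divided by DESeq2 1.30.1 size factors, a normalized signal in place of read counts. The annotation release is not given in the sources used here. Values were compared with limma 3.58.1 in R 4.3.3 on log2(value + 1), 2-sided, with a mean-variance trend, over genes averaging 10 or more, and Benjamini-Hochberg adjustment at 0.05, without covariates. The fit was also run on simulated data with independent noise for each gene. Real libraries share differences, such as those in choroid plexus RNA, so that run does not show how many real differences the fit misses. The log2(value + 1) scale understates changes of low genes. Symbols, positions, exons and 31-base words came from GENCODE M21 (20784 of 20802 identifiers matched), promoters from RefSeq. Permutation tests used scipy 1.17.1 in Python 3.11.15.

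The members and the lists were chosen with earlier results of these data known. In each list the 3 genes with the smallest p were named, with genes overlapping a member and the 5 most like Wdr90. Alternatives were a pseudocount of 0.1, no filter, a mean of at least 100, upper quartile and library size scaling, limma voom, a replicate block, a GC and length correction (loess span 0.4) with and without that block, the choroid plexus level as a covariate, an adjusted p under 0.1, other gene lengths and each mouse left out.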

Additional observations from a re-analysis of the deposited data

Results flagged for a closer look

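Among 84 groups of 4 mice examined for a mouse that stood apart (42 quantities, each in both groups), 2 were beyond Dixon's 95% critical value for 4 samples, and chance gives about 1 in 20 groups, or 4.2. For Tubg2 in the Anesthesia group the gap divided by the range was 0.988: replicate 3 had 207.8 normalized counts and the other 3 mice 175.9 to 176.3. For the γ-tubulin total per kb of exon in the Control group it was 0.831: replicate 2 had 243.2 and the other 3 mice 217 to 221.4.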

How the results depend on the processing

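All 144 alternative values of the log2 fold changes of the 8 genes (18 per gene) moved by less than 1 SD of their replicates. That SD is wider than the standard error of the fold change. With the GC and length correction Tubgcp6 moved from 0.36 to 0.28, which is more than its standard error of 0.07. The sign of Tubgcp3 turned with single mice left out (-0.04 to 0.04), with the GC and length correction with or without the replicate block (-0.01) and with scaling to library size alone (-0.002), and that of Tubgcp5 turned without Control replicate 2 (-0.03). No gene passed the adjusted threshold under any alternative except without Control replicate 1, where 2 did (leave-one-out range 0 to 2). Of the list genes, 6 had an unadjusted p under 0.05, against 2 to 9 with each mouse left out (2 without Control replicate 3), 3 with the replicate block and 1 with the GC and length correction and the replicate block. Same-numbered mice did not deviate together (correlations of -0.242, -0.109, -0.182 and 0.019, none best matched to its own number), so the replicate numbers were not taken as pairs, and the replicate block gave 1084 genes at an unadjusted p under 0.05 in place of 1513. With the longest transcript or the transcript with the longest coding sequence as length, 4 of the 7 neighbouring pairs of levels kept their order. The log2 ratio of Tubg1 to Tubg2 was 0.39 in Control mice alone (exact permutation p = 0.125, the smallest 4 mice allow) and 0.38 in Anesthesia mice alone (exact permutation p = 0.25). Unadjusted calls numbered 948 with the GC and length correction plus block, and 863 once choroid plexus was a covariate. The share of unadjusted calls that were higher was 59.3%, and 51.2% when scaled to library size alone. With each mouse left out, the median of the recruiters lay between -0.07 and 0.01, of the centriole genes between -0.09 and -0.04, of the minus-end genes between -0.07 (without Anesthesia replicate 3) and -0.01, and of the tubulins between -0.03 and 0.01. Tubg1 and Tubg2 had the lowest mean counts of the 8 genes in each group. Wdr90 was below Tubg1 in Control replicate 1 (259.9 against 276.8) and Control replicate 2 (299.5 against 314.4). For none of the 8 genes was read sampling separated from the spread between mice.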
